A study of Mus musculus with 19 samples.

Results

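Genes of Kupffer cells and other macrophages were followed in the liver of mice that model methylmalonic aciduria. The genes and all further lists were chosen with earlier results of these data known. The 33 genes were listed by symbol, in the roles that macrophage biology gives them: 10 mark the resident Kupffer cell, 12 are shared by most macrophages, 2 encode receptors for dying cells, 6 belong to monocytes and their recruitment, and 3 to lipid-associated macrophages. A named probe set was found for 32 of them among the 19505 genes measured, and *Cd68*, a lysosomal glycoprotein of macrophages, was not analysed here. The control group held 9 *Mmut*-ki/wt mice, with a wild-type allele and a knock-in allele (MMUT-p.Met700Lys), and the mutant group held 10 *Mmut*-ko/ki mice, with a knockout allele and the same knock-in allele. The knock-in allele was thus shared by both groups, and no mouse was free of it. All mice were C57BL/6N males of 20 weeks by the labels, on a high-protein diet fed *ad libitum* by the study's methods, and each array held whole-liver RNA of 1 mouse. Values are log2 signals of Mouse Clariom S arrays, on which a step of 1 is a doubling. A gene is said to have risen or fallen where limma gave a p below 0.05 after Benjamini-Hochberg adjustment over all 19505 genes.

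Kupffer cells are the macrophages that live in the liver sinusoids. They take up bacteria, aged red blood cells, lipids and complement-coated particles from portal blood. They are seeded in the embryo and renew themselves in place, under growth factors and ligands from neighbouring endothelial and stellate cells. When they are lost, monocytes enter from the blood and take on their identity, and in fatty or injured liver some of the recruited cells become lipid-associated macrophages, which carry lysosomal and lipid-handling genes.

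*Mmut*, which encodes methylmalonyl-CoA mutase, was measured first as a check of the labels. It lay between 12.80 and 13.53 (median 13.16) in control livers and between 11.18 and 11.90 (median 11.50) in mutant livers, without overlap. In limma it changed by -1.66 on the log2 scale, with a standard error of 0.12 and an adjusted p of 5.28e-10. Of all genes, 10.1% changed: 923 rose (4.73%) and 1039 fell (5.33%). Between 68.0% and 77.1% of probe sets were detected on an array, and the hepatocyte markers *Alb*, *Apoa1*, *Ttr* and 6 others of a list of 10 did not pass the test, while *Asgr1*, the asialoglycoprotein receptor of hepatocytes, fell by 0.34.

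Of the 32 macrophage genes, 6 rose (18.8%, beside 4.73% of all genes), 0 fell (beside 5.33% of all genes) and 26 did not pass the test. The genes that rose were *Vsig4*, *Clec4f*, *Adgre1*, *Cd5l*, *Ctss* and *Mertk*. The median log2 change over the 32 genes was 0.34, beside 0.0030 over all genes, and 30 of the 32 had a higher mean in the mutants. Because the genes were chosen with earlier results of these data known, these shares are not independent support. Since whole liver was measured, more cells of a type and more RNA per cell cannot be told apart in any of these values. At an unadjusted p below 0.05, limma gave 12 genes that were higher, beside 10.6% of all genes, and 0 that were lower. The study's methods name a t-test and a Wilcoxon test, run here with unequal variances and in exact form. The unequal-variance test of means gave 12 higher, beside 10.3% of all genes. The exact Wilcoxon test gave 10, beside 9.62%, and both gave 0 lower. The values of both groups overlapped for each of the 32 genes, and 1.48% of all genes had groups without overlap in either direction. The 95% interval of the change held 0 for 20 genes.

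**Figure D1:**
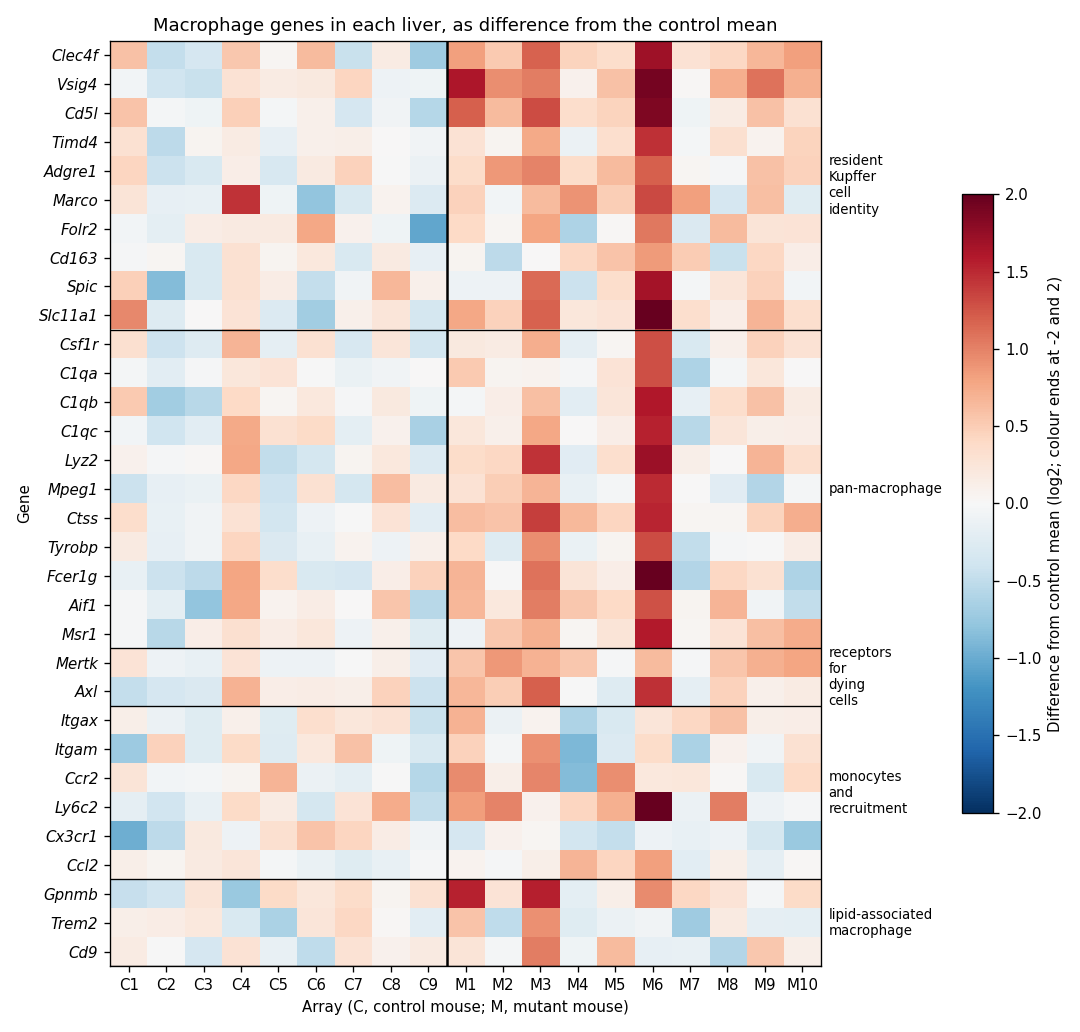
Difference of each macrophage gene (rows, grouped by role) from its control mean, in log2 units, on each of the 9 control (C) and 10 mutant (M) arrays (columns). Mutant 6 has the highest value of all 19 arrays for 23 of the 32 genes and mutant 3 for 5.

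Much of the difference was carried by a pair of mutants. Averaged over the 32 genes, mutant 6 lay 1.21 above the control mean on the log2 scale and mutant 3 lay 0.81 above it. The other 8 mutants ran from -0.06 (mutant 7) to 0.50 (mutant 1), and the controls from -0.25 (control 2) to 0.35 (control 4). Mutant 6 was the highest of all 19 arrays for 23 genes, among them 9 of the 10 genes of the resident cell and all 11 measured pan-macrophage genes. Mutant 3 was the highest for 5 genes, which include all 3 lipid-associated genes. Their shares of probe sets detected, 71.1% for mutant 6 and 70.8% for mutant 3, were inside the range of the other mutants (69.8% to 77.1%). When both were left out, a choice made after their values were seen that by itself lowers the mutant mean, 3 of the 6 genes kept their call (*Vsig4*, *Mertk* and *Ctss*), beside 3.75% of all genes called higher in the same fit. The mean of 27 of 32 genes was then higher in the mutants, with a median change of 0.16.

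**Figure D2:**
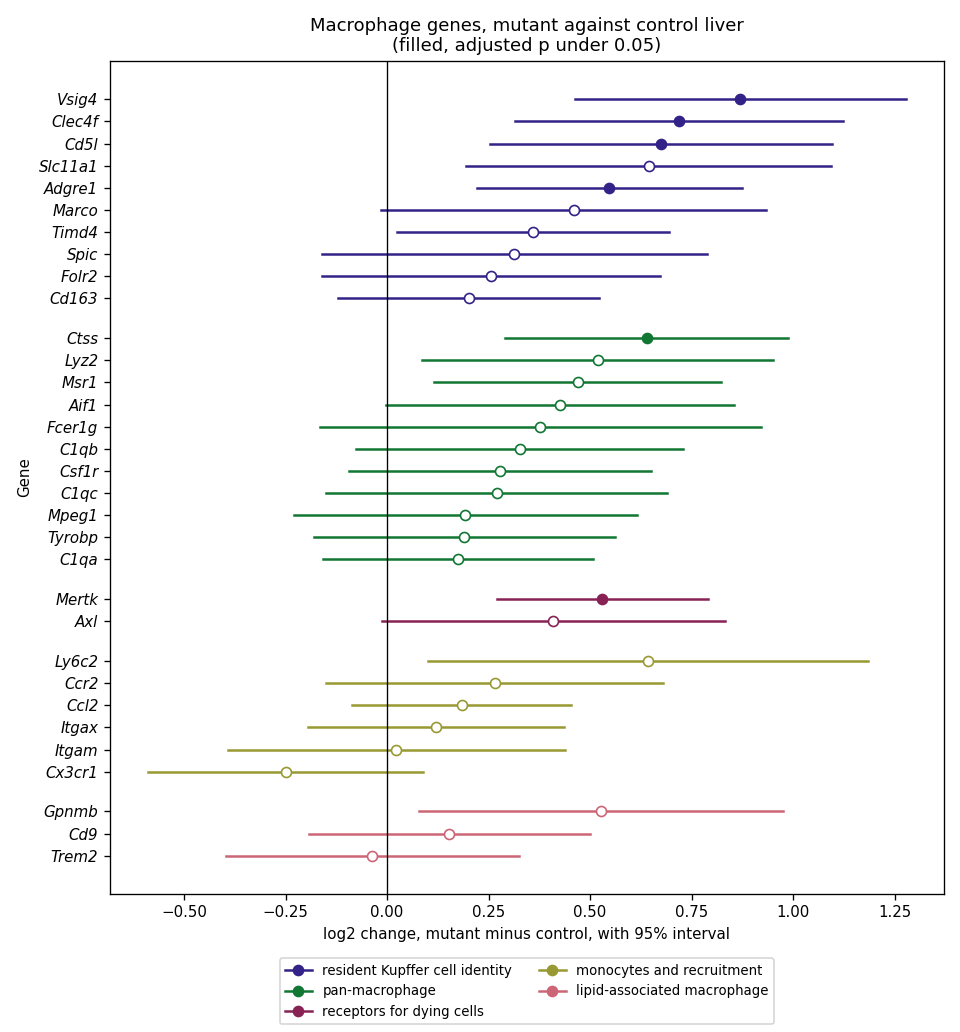
Change of each of the 32 macrophage genes in mutant against control liver (log2, horizontal axis), with its 95% interval from limma; filled points mark the 6 genes that rose. The 10 genes of resident Kupffer cells all have points above 0, from 0.20 (*Cd163*) to 0.87 (*Vsig4*).

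Among the genes that mark the resident Kupffer cell, 4 of 10 rose and the means of the other 6 were also higher in the mutants. *Vsig4* encodes a complement receptor by which Kupffer cells capture particles coated with C3 fragments. It lay between 9.70 and 10.58 (median 10.08) in control livers and between 10.17 and 12.05 (median 10.96) in mutant livers. The signal was above every control in 8 of 10 mutants and above the control median in all 10. The change of 0.87 (limma, SE 0.20 and adjusted p = 0.00435), a 1.83-fold rise with a 95% interval of 1.38 to 2.43, was the largest of the 32 genes, and an exact permutation of the group labels (two-sided, 92378 splits) gave p = 0.000844.

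*Clec4f* encodes a C-type lectin that in the mouse is made by Kupffer cells and serves as their defining marker. Its signal lay between 8.27 and 9.62 (median 9.02) in control livers and between 9.27 and 10.68 (median 9.57) in mutant livers. All mutants were above the control median and 5 were above every control. It rose 1.65-fold (limma, log2 change 0.72 with SE 0.20, adjusted p = 0.0183), and without mutants 3 and 6 the change was 0.54 (adjusted p = 0.0672). *Adgre1*, which encodes the macrophage surface protein F4/80, lay between 7.24 and 8.14 (median 7.66) in control livers and between 7.65 and 8.87 (median 8.20) in mutant livers. The groups overlapped in their middle, with 5 mutants above every control. It rose by 0.55 (adjusted p = 0.0262), and its call was lost when control 2, 3 or 5 or mutant 3 was left out (adjusted p up to 0.0574), and without mutants 3 and 6 together (adjusted p = 0.10).

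*Cd5l* encodes a secreted protein that protects macrophages from death and is a target of liver X receptors. It lay between 10.59 and 11.72 (median 11.11) in control livers and between 11.07 and 13.02 (median 11.66) in mutant livers. Mutant 6 held the top value and 5 mutants were above every control. The rise of 0.67 (standard error 0.20, adjusted p = 0.0346) was the least secure of the 6. It did not pass when any 1 of control 2, 3, 5, 7, 8 or 9 or mutant 1, 3 or 6 was left out (adjusted p up to 0.0734), and its change was 0.45 without mutants 3 and 6 together (adjusted p = 0.110).

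**Figure D3:**
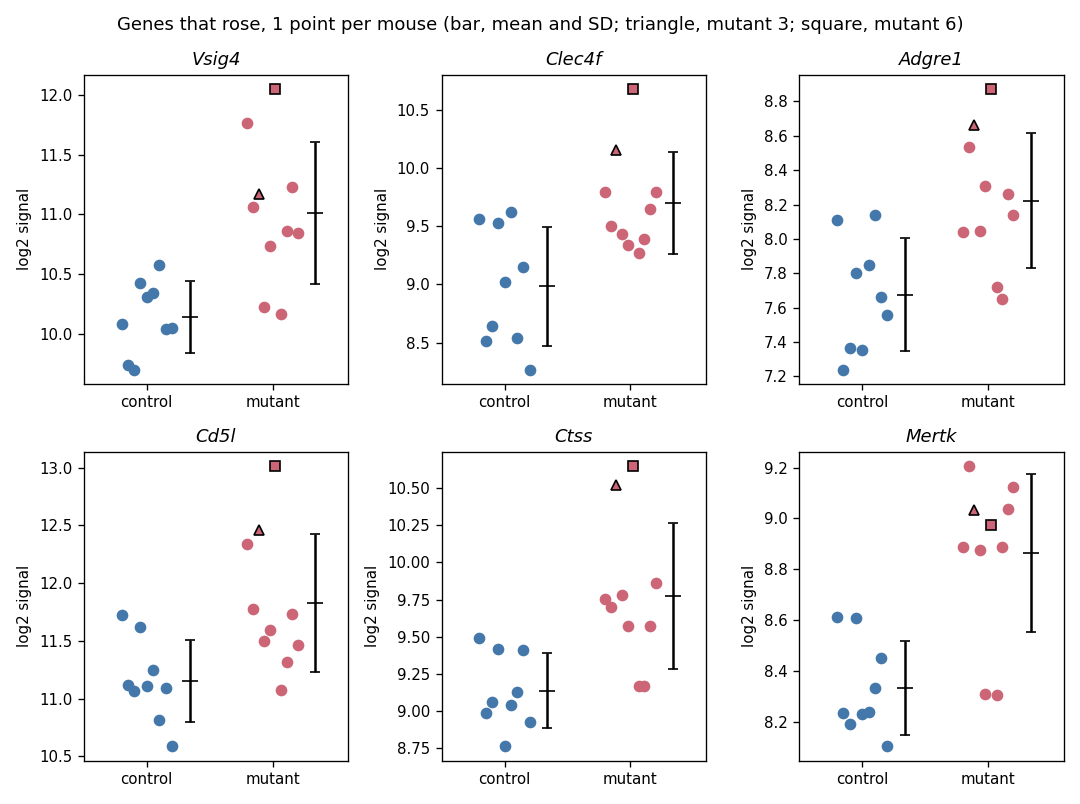
Signal (log2, vertical axis) of the 6 macrophage genes that rose, 1 point per mouse, with the mean and SD of each group beside the points; a triangle marks mutant 3 and a square mutant 6. For *Vsig4*, *Ctss* and *Mertk*, 8 of 10 mutants lie above every control; for *Clec4f*, *Adgre1* and *Cd5l*, 5 do.

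The remaining resident-cell genes did not pass the test. *Slc11a1*, the metal ion transporter of the phagosome, came closest, between 6.45 and 8.10 (median 7.16) in control livers and between 7.27 and 9.20 (median 7.55) in mutant livers. All mutants were above the control median, but only 2 were above control 1, the highest control. Its change was 0.64 (adjusted p = 0.0614), and it passed without control 1 or without mutant 8 (adjusted p down to 0.0166). *Timd4*, a phosphatidylserine receptor kept by Kupffer cells of embryonic origin, differed by 0.36 (adjusted p = 0.185) and had 5 mutants above every control. *Marco*, a scavenger receptor for bacteria, differed by 0.46 (adjusted p = 0.242). Control 4, at 7.52, was the highest of all 19 arrays for *Marco*, and without it the difference was 0.64 (adjusted p = 0.0359). The differences were smaller for *Spic*, a transcription factor of iron-recycling macrophages (0.31), *Folr2*, the folate receptor beta (0.26), and *Cd163*, the receptor for hemoglobin bound to haptoglobin (0.20), and the interval of each held 0.

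Of 11 measured pan-macrophage genes, only *Ctss* rose, although all 11 means were higher in the mutants. *Ctss* encodes cathepsin S, a lysosomal protease that prepares MHC class II for peptide loading. It lay between 8.76 and 9.49 (median 9.06) in control livers and between 9.17 and 10.65 (median 9.72) in mutant livers. The values were above every control in 8 mutants and above the control median in all 10. It rose 1.56-fold (limma, log2 change 0.64 with SE 0.17, adjusted p = 0.0148), and it kept its call whichever single array was left out. *Msr1*, scavenger receptor A, differed by 0.47 (adjusted p = 0.0869) and passed without mutant 1 (adjusted p = 0.0478). *Lyz2*, lysozyme of myeloid cells, differed by 0.52 (adjusted p = 0.128), and its probes may share sequence with the near-identical *Lyz1*.

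Several genes widely used to stain or count macrophages did not pass the test. *Csf1r*, the receptor on which macrophage survival depends, lay between 9.03 and 10.11 (median 9.26) in control livers and between 9.13 and 10.72 (median 9.62) in mutant livers, with a difference of 0.28 (95% interval -0.09 to 0.65, adjusted p = 0.395). Only 2 mutants exceeded every control. The 3 chains of complement C1q, which macrophages secrete, differed by 0.17 (*C1qa*), 0.33 (*C1qb*) and 0.27 (*C1qc*), and none passed (adjusted p = 0.584, 0.346 and 0.480). *Aif1*, an actin-binding protein known as IBA1, differed by 0.43 (adjusted p = 0.228). The signaling adaptors *Fcer1g* and *Tyrobp*, which carry activating signals from many myeloid receptors, differed by 0.38 and 0.19. *Mpeg1*, the pore-forming perforin-2, differed by 0.19. Without mutants 3 and 6 the difference was -0.03 for *Mpeg1* and -0.04 for *Tyrobp*.

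**Figure D4:**
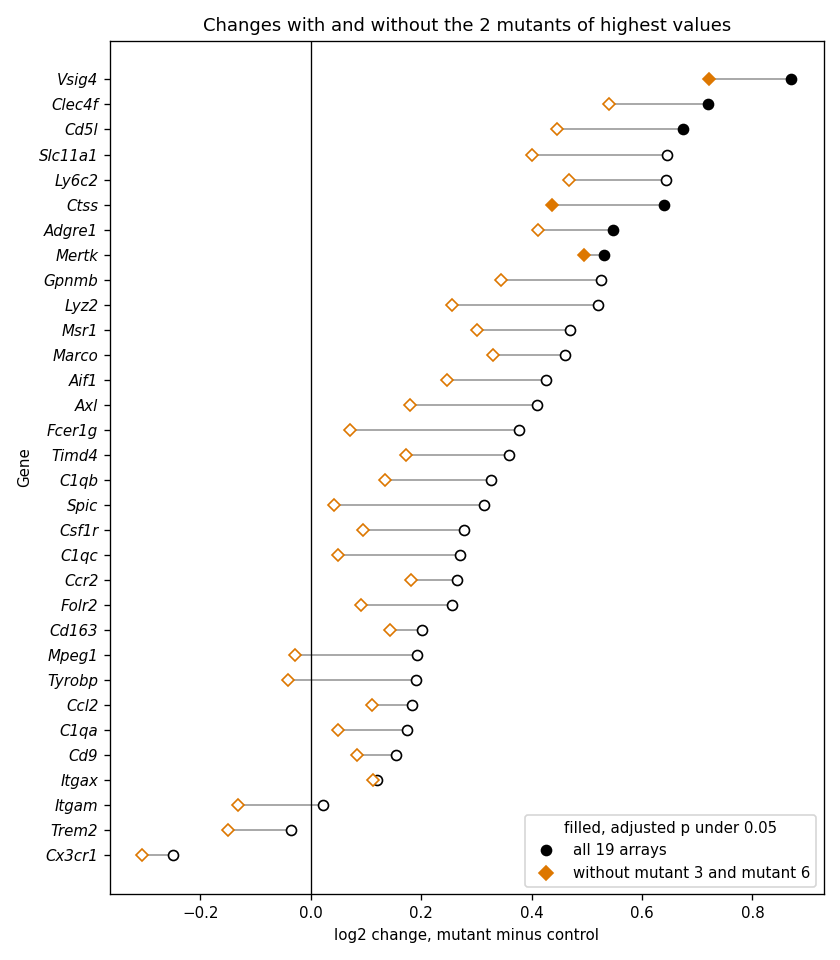
Change of the 32 macrophage genes (log2, horizontal axis) with all 19 arrays (circles) and without mutant 3 and mutant 6 (diamonds); filled marks have an adjusted p below 0.05. *Vsig4*, *Ctss* and *Mertk* stay filled, *Mertk* moves from 0.53 to 0.50, and *Fcer1g* from 0.38 to 0.07.

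*Mertk* and *Axl* encode the TAM receptor kinases of macrophages, which bind apoptotic cells through bridging proteins and start their uptake. *Mertk* lay between 8.10 and 8.61 (median 8.24) in control livers and between 8.31 and 9.21 (median 8.93) in mutant livers. It was above every control in 8 mutants, and its highest value was in mutant 2, not in mutant 3 or 6. It rose 1.44-fold (limma, log2 change 0.53 with SE 0.13, adjusted p = 0.00646), and the exact permutation test gave p = 0.00101. Without mutants 3 and 6 the change was 0.50 (adjusted p = 0.0248). *Axl* lay between 7.28 and 8.45 (median 7.87) in control livers and between 7.50 and 9.21 (median 8.07) in mutant livers. Its 2 highest mutants alone exceeded the controls, and the difference of 0.41 did not pass (adjusted p = 0.243). Whether the changes of the 2 receptors differ was not tested. Of 12 genes for their ligands and partners in engulfment, 1 rose and 0 fell, beside 4.73% and 5.33% of all genes. Without mutants 3 and 6, 1 rose and 1 fell, beside 3.75% of all genes called higher (the share called lower is not given here). The one that rose was *Pros1*, which encodes protein S, a bridging ligand that hepatocytes also secrete, and its groups did not overlap. It lay between 10.64 and 11.35 (median 11.02) in control livers and between 11.36 and 12.03 (median 11.60) in mutant livers (log2 change 0.58, adjusted p = 0.00131).

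Genes of monocytes and of their recruitment did not pass the test in either direction (0 of 6 in limma, with 1 at an unadjusted p below 0.05, beside 22.3% of all genes in either direction), and most lay near the detection limit. *Ly6c2*, which marks inflammatory monocytes and whose probes may share sequence with *Ly6c1*, lay between 3.88 and 5.11 (median 4.23) in control livers and between 4.25 and 6.97 (median 4.95) in mutant livers. It was detected in 6 of 9 controls and in all 10 mutants, and mutant 6 stood far above the rest. The difference of 0.64 had an adjusted p of 0.133. *Ccr2*, the receptor that draws monocytes out of the marrow, differed by 0.26 (adjusted p = 0.485), and its ligand *Ccl2* by 0.18 (adjusted p = 0.451). *Cx3cr1*, the fractalkine receptor of patrolling monocytes, had a lower mean in the mutants, at -0.25 (adjusted p = 0.402). *Itgam*, the integrin subunit CD11b, differed by 0.02, a value that turned negative under both other normalizations (-0.01 after median centring and -0.02 after quantile normalization). *Itgax*, the integrin subunit CD11c, was not detected in any control and was detected in 3 mutants, so that no fold is given (adjusted p = 0.718).

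Of the 3 lipid-associated genes, 0 passed in limma, with 1 at an unadjusted p below 0.05 (22.3% of all genes in either direction). *Gpnmb*, a lysosomal glycoprotein of lipid-laden macrophages, lay between 3.59 and 4.72 (median 4.57) in control livers and between 4.14 and 5.89 (median 4.67) in mutant livers. It was above every control in 5 mutants, led by mutants 3 and 1. The difference was 0.53 (adjusted p = 0.139), with detection on 5 control and 6 mutant arrays. *Trem2*, the lipid-sensing receptor of these cells, was detected on 5 control and 3 mutant arrays and differed by -0.04 (95% interval -0.40 to 0.33). *Cd9*, a tetraspanin that other liver cells also make, differed by 0.15 (adjusted p = 0.661). Averaged over the 3 genes, mutant 3 lay 1.17 above the control mean and mutant 1 lay 0.79 above it, while mutant 6 lay 0.24 above it.

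Promoter sequences are shown for the genes that rose and hold the core binding letters of PU.1, the factor that sets the macrophage lineage. The letters searched were GAGGAA and, on the other strand, TTCCTC, in RefSeq windows of 300 bases from 250 before to 50 after the start of a gene (build GRCm38.p6). Of the 32 genes, 26 had at least 1 window. The letters occurred in 13 of their 28 windows (46.4%, of 12 genes), beside 28.3% of all 32851 windows. *Vsig4*, *Cd5l* and *Ctss* hold them, marked in capitals below, and the windows of *Clec4f* and *Mertk* do not. For *Adgre1*, which also rose, no window was available. A match describes letters only, and binding was not measured.
Vsig4 promoter, chrX:96293389-96293688, minus strand: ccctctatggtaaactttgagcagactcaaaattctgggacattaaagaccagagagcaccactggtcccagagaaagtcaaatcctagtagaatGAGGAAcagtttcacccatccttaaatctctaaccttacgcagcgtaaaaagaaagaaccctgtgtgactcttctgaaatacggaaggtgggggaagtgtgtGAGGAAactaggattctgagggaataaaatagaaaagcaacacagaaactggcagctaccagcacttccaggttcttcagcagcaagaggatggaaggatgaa
Cd5l promoter, chr3:87357631-87357930, plus strand: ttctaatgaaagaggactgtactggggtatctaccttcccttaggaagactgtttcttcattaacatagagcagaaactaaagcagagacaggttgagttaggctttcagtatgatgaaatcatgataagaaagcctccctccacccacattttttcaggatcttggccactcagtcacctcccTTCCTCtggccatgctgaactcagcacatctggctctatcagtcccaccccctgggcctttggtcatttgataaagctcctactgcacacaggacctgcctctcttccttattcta
Ctss promoter, chr3:95526536-95526835, plus strand: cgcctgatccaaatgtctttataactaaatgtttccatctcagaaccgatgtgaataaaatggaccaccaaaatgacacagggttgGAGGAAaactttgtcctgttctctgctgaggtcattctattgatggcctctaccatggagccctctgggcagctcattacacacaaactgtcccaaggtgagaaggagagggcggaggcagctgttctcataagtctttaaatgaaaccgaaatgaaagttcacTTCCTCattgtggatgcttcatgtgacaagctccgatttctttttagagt

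The wider Kupffer cell program was read from a list of 10 further measured genes, of which 6 rose and 1 fell. The shares of all genes were 4.73% and 5.33%. *Slc40a1* encodes ferroportin, the iron exporter, which hepatocytes also make. It lay between 12.35 and 13.20 (median 13.05) in control livers and between 13.18 and 14.14 (median 13.63) in mutant livers, of which 9 were above every control (log2 change 0.67, adjusted p = 0.00373). *Siglec1*, the sialic acid receptor CD169, lay between 4.62 and 5.44 (median 5.26) in control livers and between 5.37 and 6.78 (median 5.73) in mutant livers, again with 9 above every control (0.71, adjusted p = 0.00632). For both genes, 1 mutant lay inside the control range. *Fabp7*, a fatty acid binding protein, rose by 0.84 (adjusted p = 0.00967). *C6*, a terminal complement component made mainly by hepatocytes, fell by 1.39 (adjusted p = 0.00115). Without mutants 3 and 6, 3 of the 10 genes rose and 1 fell. In that fit 3.75% of all genes were called higher, and the share called lower is not given here.

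Among 15 measured lineage and growth factor genes, 4 rose and 1 fell, beside 4.73% and 5.33% of all genes. *Csf1*, the ligand of the receptor encoded by *Csf1r*, lay between 8.30 and 9.09 (median 8.52) in control livers and between 8.65 and 10.17 (median 9.40) in mutant livers. All mutants were above the control median and 7 were above every control (log2 change 0.80, adjusted p = 0.0030). *Id1*, a transcriptional inhibitor induced by bone morphogenetic proteins, rose 2.89-fold (1.53, adjusted p = 0.00103), and *Bmp10*, one of these ligands, rose by 0.55 (adjusted p = 0.0131). *Nr1h3*, which encodes the liver X receptor alpha of Kupffer cells and hepatocytes, lay between 11.63 and 12.51 (median 12.13) in control livers and between 11.20 and 12.06 (median 11.62) in mutant livers. It fell by 0.51 (adjusted p = 0.0136), with all mutants below the control median and 5 below every control. *Cd5l* and *Nr1h3* had changes of opposite sign, 0.67 and -0.51, and whether these changes are linked was not tested.

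**Figure D5:**
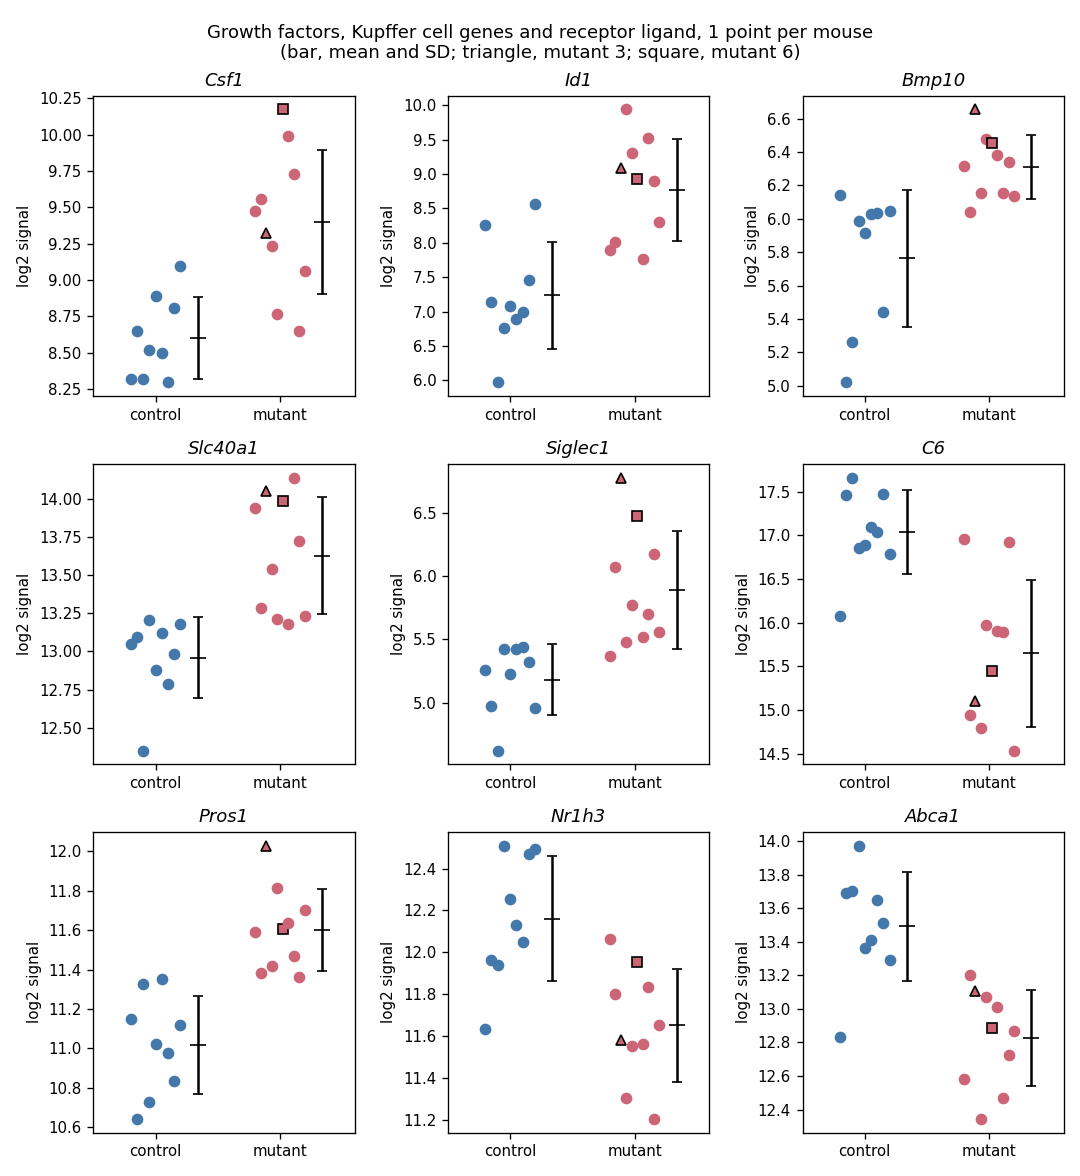
Signal (log2, vertical axis) of 9 genes from the wider lists, 1 point per mouse, with the mean and SD of each group; a triangle marks mutant 3 and a square mutant 6. *Pros1* does not overlap between the groups, *Slc40a1* and *Siglec1* have 9 of 10 mutants above every control, and the lowest control for *C6*, *Nr1h3* and *Abca1* is control 1.

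Of 18 further lipid-associated macrophage genes, 5 rose and 2 fell, beside 4.73% and 5.33% of all genes. *Hexa*, a lysosomal hexosaminidase, lay between 8.80 and 9.40 (median 9.10) in control livers and between 9.58 and 10.72 (median 9.84) in mutant livers, without overlap (log2 change 0.85, adjusted p = 0.000147). *Lipa*, lysosomal acid lipase, rose by 0.40 (adjusted p = 0.0214). *Abca1*, the cholesterol exporter, fell by 0.67 (adjusted p = 0.00213), and *Fabp5*, a fatty acid binding protein, fell by 1.94 (adjusted p = 0.00537). The largest rise of the list was that of *Mmp12*, the macrophage elastase, at 1.78, a gene named after its value was seen. Its detection, its overlap between groups and its dependence on mutants 3 and 6 were not read here. Without mutants 3 and 6, 3 of the 18 rose and 2 fell. In that fit 3.75% of all genes were called higher, and the share called lower is not given here. Mean log2 signals in control livers were 14.4 for *Lipa*, 13.5 for *Abca1*, 10.2 for *Fabp5* and 9.08 for *Hexa*. They were 8.98 for *Clec4f* and 3.87 for *Trem2*. Which liver cells gave these signals was not tested.

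Of 20 cytokine and chemokine genes, 3 rose and 0 fell, and *Tnf*, *Il6*, *Ptgs2* and *Retnla* were not detected on any array. *Cxcl10*, an interferon-induced chemokine, rose by 1.40 (adjusted p = 0.0140), with a highest mutant value of 9.58 in mutant 6. Of 20 genes for phagocytosis and pattern receptors, 3 rose and 0 fell: *Tlr13*, a sensor of bacterial RNA, by 0.81 (adjusted p = 0.00959), *Tlr7*, a sensor of single-stranded RNA, by 0.77 (adjusted p = 0.0163), and the Fc receptor *Fcgr3* by 0.46 (adjusted p = 0.0250). Of 18 further monocyte genes, 3 rose and 0 fell, led by *Plac8* at 0.84 (adjusted p = 0.0020). The means of 9 of these 18 genes were higher in the mutants and those of 9 were lower, with a median change of 0.036. *Ace* also passed the test (adjusted p = 0.0129), but it was not detected in any control and in 1 mutant only, so that no fold is given. The adaptor list gave 1 rise of 14, the leukocyte list 2 of 14 and the list of C1 partners 1 of 9, each with 0 falls, beside 4.73% of all genes that rose. Without mutants 3 and 6 these counts were 0, 0 and 0, and the cytokine, receptor and monocyte lists gave 1, 1 and 2 rises. In that fit 3.75% of all genes were called higher. Of the 9 C1 partners, 2 means were higher in the mutants and 7 were lower, with a median change of -0.0039. The C1 list gave 2 falls with limma's trend and robust settings, 2 after median centring and 0 after quantile normalization. After adjustment, the exact Wilcoxon test gave 2 falls and the unequal-variance test of means gave 1, and both gave 0 rises.

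Markers of other liver cells were read beside these values. Their counts stand beside 4.73% of all genes that rose and 5.33% that fell. Of 12 sinusoidal endothelial markers, 1 rose, the lectin gene *Clec4g* (0.67, adjusted p = 8.71e-05), and the log2 of the summed signal of the list was 14.2 to 14.6 in control livers and 14.4 to 14.9 in mutant livers. Of 9 markers of natural killer cells and related lymphoid cells, 1 rose (*Klrk1*, 0.52), and their summed level was 7.50 to 7.74 in control livers and 7.67 to 8.68 in mutant livers, highest in mutant 6. Of 8 T cell markers, *Cd4*, the coreceptor of helper T cells, fell by 0.55, and the summed level was 7.55 to 8.27 and 7.38 to 8.37, again highest in mutant 6. The median change over the 8 T cell markers was 0.18, with 6 higher in the mutants and 2 lower. Of 11 neutrophil markers, 0 passed in limma, also at an unadjusted p below 0.05 (22.3% of all genes in either direction). Their summed level was 7.74 to 8.11 and 7.95 to 8.18, and *Camp*, *Ngp* and *Ltf* were not detected on any array. Of 10 dendritic cell markers, 1 rose, *Bst2*, which interferon induces in many cells, by 2.65, with all 10 mutants above every control, and *Flt3* was not detected on any array. The median change over the 10 dendritic cell markers was 0.06, with 6 higher in the mutants and 4 lower. Of 5 erythroid and platelet markers, 2 fell, *Alas2* by 1.89 and *Ppbp*, the latter detected in only 3 of 9 controls and in no mutant. The summed level of the list was 10.4 to 11.3 in control livers and 8.84 to 10.1 in mutant livers. The means of *Alas2* alone were 10.7 and 8.84. The median change over the 5 genes was 0.05, with 3 of 5 higher in the mutants. Of 7 cholangiocyte markers, 0 rose and 1 fell (*Sox9*, by 0.77, adjusted p = 0.00790), their summed level was 11.6 to 12.2 in control livers and 11.9 to 12.5 in mutant livers, highest in mutant 3, and *Krt19* was not detected on any array. The median change over the 7 cholangiocyte markers was 0.12, with 5 higher in the mutants and 2 lower. Of 11 stellate cell markers, 0 rose and 1 fell (*Reln*, by 0.44, adjusted p = 0.0196), with a summed level of 10.3 to 10.8 and 10.2 to 10.9. The median change over the 11 stellate cell markers was 0.0075, with 6 higher in the mutants and 5 lower. Of 7 B and plasma cell markers, 0 passed in limma, with 1 at an unadjusted p below 0.05 (22.3% of all genes in either direction). Their summed level was 6.93 to 7.28 and 7.12 to 7.55. The calls of *Asgr1*, *Klrk1* and *Cd4* were lost in 14, 14 and 12 of the 19 fits that left out 1 array. The part of these cells in the macrophage values was not tested.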

How the data were processed

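Liver RNA was measured for 9 control and 10 mutant mice, each on its own Mouse Clariom S array. The log2 values that the authors deposited were normalized between arrays and summarized per probe set with SST-RMA in the array maker's software. The deposited table pairs each with a p-value (Dabg) for signal over background, and detected means a value below 0.05. The values were used as deposited, with no filter. Of 22206 probe sets, 19572 name 1 gene and 2634 are unnamed in the annotation used here. For the 55 genes with several probe sets, the one of highest mean was taken.

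Mutants were compared with controls by the moderated two-sided test of limma (version 3.58.1, R 4.3.3), with Benjamini-Hochberg adjustment over 19505 genes, and single genes by exact permutation over 92378 splits, whose smallest p is 1.08e-05. The fit was tested on simulated data. No fold is given where a group had no detected array. Named are all macrophage genes, up to 4 changed genes of each further macrophage list, up to 2 of each list of other cell markers, undetected markers and *Mmut*. *Mmp12* was named besides, for the largest rise of its list. *Alb*, *Apoa1*, *Ttr* and other genes without values are named only as list members. The macrophage genes and all lists were chosen with earlier results of these data known. Replicate numbers did not pair the mice. Alternatives were other tests, normalizations, filters, array weights, a replicate block and leaving arrays out. The arrays' number and the background limit precision. The image files were not used here. Promoter windows are from RefSeq, and Python 3.11.15 was used for summaries.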

Additional observations from a re-analysis of the deposited data

Results flagged for a closer look

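A sample was singled out where the gap between an extreme value and its neighbor exceeded Dixon's 95% limit for its group. Among 68 genes, or 136 groups, 8 values were singled out, while chance alone flags about 1 in 20 groups. Mutant 6 was the highest mutant for 4 of them: *C1qb* at 10.4 (next 9.39), *Msr1* at 9.43 (next 8.59), *Ly6c2* at 6.97 (next 5.40) and *Cxcl10* at 9.58 (next 7.52), all as log2 signals. *Marco* was at 7.52 in control 4 (next 6.34), the highest of all 19 arrays. *Slc40a1* was lowest in control 3, at 12.4 (next 12.8). *Ace* was at 4.79 in mutant 2 (next 3.99), the one array on which it was detected. *Clec4g* was at 12.4 in mutant 9 (next 12.2).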

How the results depend on the processing

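The count of 6 macrophage genes that rose ran from 4 to 7 when single arrays were left out, and 0 fell in any of these fits. It was 6 with trend and robust settings, the second deposited table, the mean over probe sets, median centring and quantile normalization, and 7 with array weights or either filter on dim probe sets. It was 3 with the exact Wilcoxon test after adjustment (*Ctss*, *Mertk* and *Vsig4*) and 4 with the unequal-variance test of means after adjustment. At an unadjusted 0.05 the Wilcoxon and mean tests gave 10 and 12, with 1877 and 2013 of all genes higher and 2161 and 2234 lower. Against a minimum change of 1.5-fold, limma's treat left 0 of the 32, beside 124 genes higher and 62 lower. Without mutants 3 and 6 it was 3, a choice made after the data were seen. *Clec4f*, *Vsig4*, *Ctss* and *Mertk* kept their calls whichever single array was left out.

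The sign of *Itgam* turned in several fits: -0.0125 after median centring, -0.0171 after quantile normalization, -0.00913 with array weights, -0.00947 with the replicate block, -0.133 without mutants 3 and 6, and -0.0768 to 0.124 when single arrays were left out. *Trem2* ran from -0.141 to 0.0382 when single arrays were left out, and *Mpeg1* and *Tyrobp* were at -0.0296 and -0.0407 without mutants 3 and 6. With the replicate number as a replicate block, which drops mutant 10, 5 macrophage genes rose and *Adgre1* lost its call. The numbers are not a pairing: over 9 pairs, deviations of same-numbered mice correlated between -0.0925 and 0.0581, and 0 of 9 controls correlated best with their own number. Among other genes that rose, *Ms4a4c* and *Il1rn* lost their calls with the unequal-variance and exact Wilcoxon tests after adjustment. In fits that left out 1 array, *Ms4a4c* lost its call without control 2, 4 or 9 and *Il1rn* without control 8. *Il1a* (cytokine list) lost its call in 13 of 19 such fits and *Vav1* (adaptor list) in 12. *Cd53* and *Cd48* (leukocyte list) lost theirs in 11 and 10, and *C3ar1* (C1 partners) in 10. The calls of *Asgr1*, *Klrk1* and *Cd4* were lost in 14, 14 and 12 of 19 such fits and under the replicate block. *Nr1h3*, *Lipa* and *Reln* lost theirs under the replicate block, as did *Il1a*, *Vav1*, *Cd48* and *C3ar1*. *Reln* also lost its call in limma without mutants 3 and 6 (adjusted p = 0.0627). Signals near background limit *Itgax*, *Trem2*, *Itgam*, *Cx3cr1*, *Ccr2*, *Ly6c2* and *Gpnmb*, which were not detected on every array. Nor were *Cxcl10*, *Ace*, *Cd48* and *Ppbp* of the further lists.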
